A study of Rattus norvegicus with 8 samples.

Results

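The enzymes described here introduce double bonds into fatty acids or lengthen them. They are the desaturases Scd, Scd2, Fads1 and Fads2 and the elongases Elovl1, Elovl2, Elovl5 and Elovl6, 8 genes of 25128 features tested. They were chosen by name: a probe belonged to a gene when its RefSeq accession, without version, is that gene's in the RefSeq table. All 8 were found, with 13 probes in all, and all 8 passed the filter on dim probes. RNA came from the liver of male Wistar/ST rats on Agilent 1-colour arrays. The 4 Control arrays were from rats whose diet was rich in fat and whose water was rich in fructose. The 4 Eucommia arrays were from rats on that same regimen that also drank an extract of leaves of Eucommia ulmoides, a tree whose leaves are used as a tea, for 5 weeks. The age of the rats is not given in the sources used here. The labels number 4 samples in each group, but do not tie each array to a rat of its own; the p-values therefore rest on the spread among the 4 samples of a group, part of which may be technical. The comparison asks which of these liver transcripts differ when the extract is given on this diet.

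Palmitate, the main product of fatty acid synthase, is desaturated to palmitoleate by the stearoyl-CoA desaturases, or is lengthened to stearate by Elovl6 and then desaturated to oleate, a major fatty acid of liver triglyceride. The essential polyunsaturated acids of the diet take another route, in which Fads2, Elovl5, Fads1 and Elovl2 act in turn to make arachidonate and the precursors of docosahexaenoate. In the liver, insulin and dietary sugar raise several of these genes through the transcription factors SREBP-1c and ChREBP, and polyunsaturated fat lowers them.

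None of the 8 genes passed the test between the groups. By limma (2-sided, Benjamini-Hochberg adjustment over all features, threshold 0.05), 0 of 8 were called and 0 of 8 had an unadjusted p under 0.05, while 24.6% of all features were called, 18.4% higher and 6.24% lower in the Eucommia group. Among features with a gene symbol 21.9% were called, 16.1% higher and 5.84% lower. All 8 genes were above background on all arrays, and of such features 18.6% were called, 11.6% higher and 7% lower. In tissue RNA, fewer cells of a type and less RNA per cell cannot be told apart. Groups overlapped for all 8 genes, and 28.6% of all features had groups that did not overlap. That share includes features above background on only some of the arrays. The log2 differences, Eucommia minus Control, ran from -0.59 for Elovl6 to 0.075 for Elovl2, with a median of -0.15 against 0.019 over all features. The spread between arrays of a group was wide for several of the genes. The pooled within-group SD of Scd was 0.847 on the log2 scale, larger than that of 98.5% of features, and 6 of the 8 genes lay above the median feature.

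Signals are given on the log2 scale with each array's 75th percentile set to 0, so a value of 1 is a doubling over that percentile. Probes differ in brightness for technical reasons, so the level of a gene is compared between arrays and never with the level of another gene. Each gene is read at its brightest probe unless another is named.

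**Figure D1:**
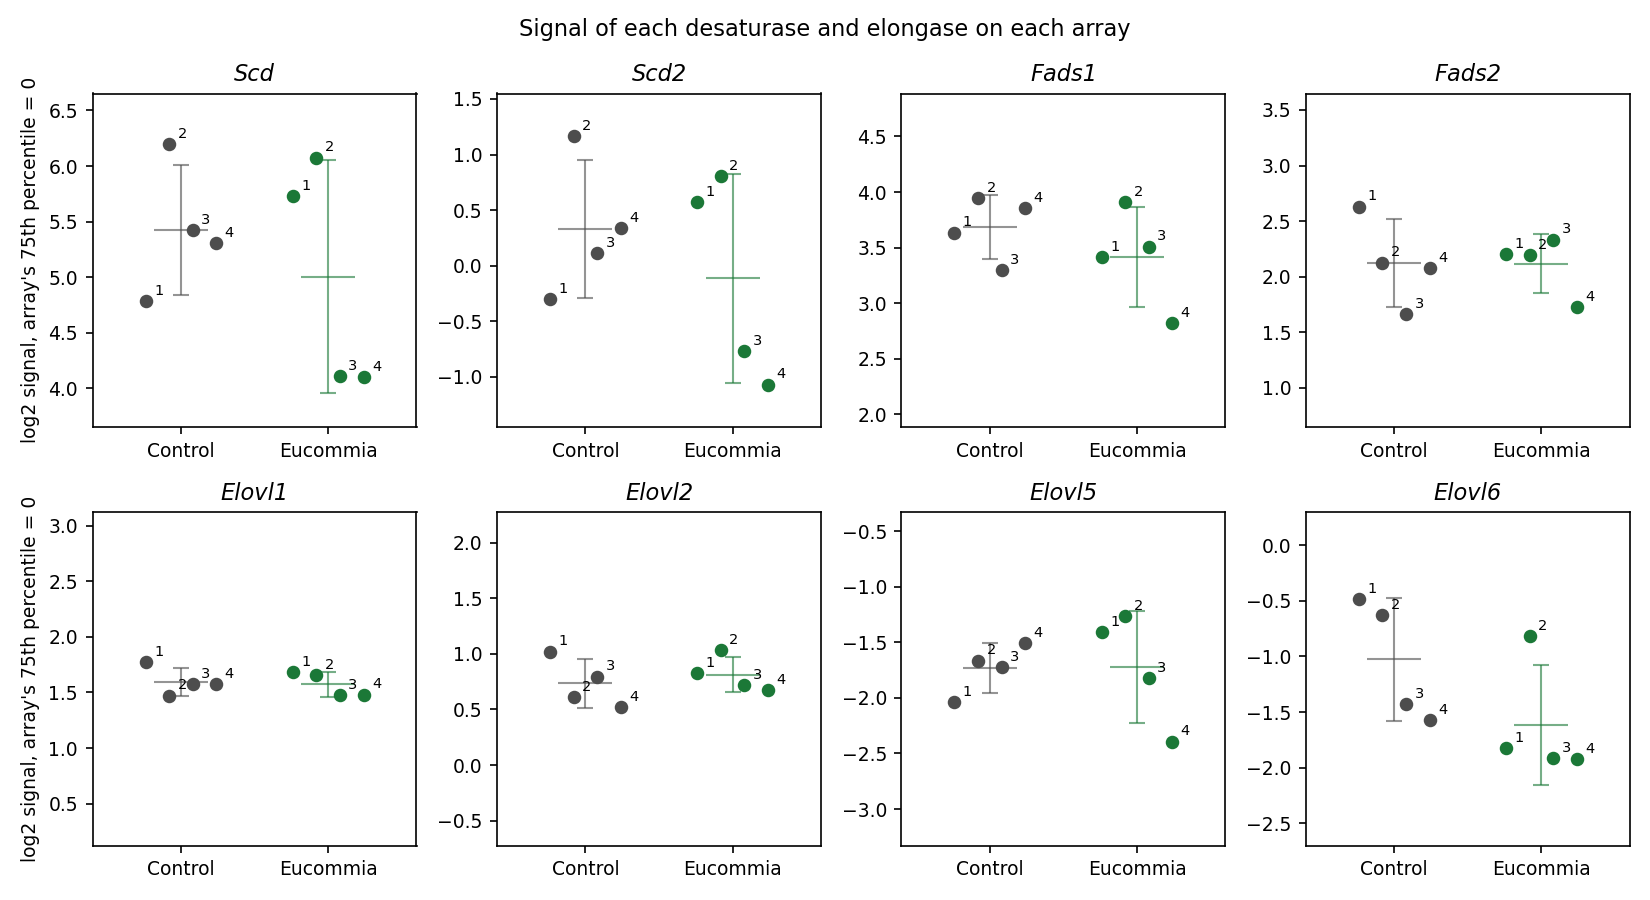
Log2 signal (vertical axis, each array's 75th percentile = 0) of each gene at its brightest probe on the 4 Control and 4 Eucommia arrays; numbers are replicates, horizontal bars the group means and error bars the SD, and every panel spans the same range. Scd and Scd2 spread widest in both groups, Elovl1 and Elovl2 least, and the groups overlap in every panel.

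Scd encodes the main stearoyl-CoA desaturase of liver, which makes oleate and palmitoleate. On the Control arrays its log2 signal was 4.79, 6.20, 5.42 and 5.31, and on the Eucommia arrays 5.73, 6.08, 4.11 and 4.10. Eucommia replicates 3 and 4 lay below every Control array, and replicates 1 and 2 lay within the Control range. The group means were 5.43 ± 0.58 and 5.00 ± 1.05 (SD, n = 4 each). The difference was -0.42 ± 0.50 (SE) with an adjusted p of 0.595 by limma, and its 95% interval reached from -1.57 to 0.72. In folds, the interval covered 0.338 to 1.64 times the Control level. Between the lowest and the highest of the 8 arrays the signal differed 4.27-fold. Without Eucommia replicate 3 the difference was -0.13, without replicate 4 it was -0.12, without Control replicate 2 it was -0.17, and without Eucommia replicate 2 it was -0.78, and no fit called it.

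Scd2 is a second stearoyl-CoA desaturase, best known from brain and from tissues other than adult liver. It had 3 probes. The brightest, A_44_P194152, read -0.30, 1.17, 0.11 and 0.34 on the Control arrays and 0.58, 0.81, -0.77 and -1.07 on the Eucommia arrays. Its high and low arrays were nearly those of Scd: Control replicate 2 and Eucommia replicates 1 and 2 were high, and Eucommia replicates 3 and 4 were lowest. The difference was -0.45 ± 0.47 (SE; adjusted p = 0.551 by limma), with an interval from -1.52 to 0.63. Without Control replicate 2 it was -0.17, without Eucommia replicate 3 it was -0.23, without replicate 4 it was -0.13, and without replicate 2 it was -0.75. The other probes shared this pattern in part or not at all. Probe A_42_P813567 stayed between -0.52 and -0.11 on all 8 arrays, with a difference of 0.09 ± 0.12, and it too was higher on Eucommia replicates 1 and 2 than on 3 and 4, but on the Control arrays it was highest on replicate 1. Probe A_44_P198396 ran from -1.50 to -0.22, with a difference of -0.22 ± 0.25. The mean over the 3 probes gave -0.19. Scd and Scd2 are close paralogs, so the level of Scd2 by probe A_44_P194152 is uncertain. The files give no probe sequences, and whether that probe also takes up Scd transcript was not tested.

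**Figure D2:**
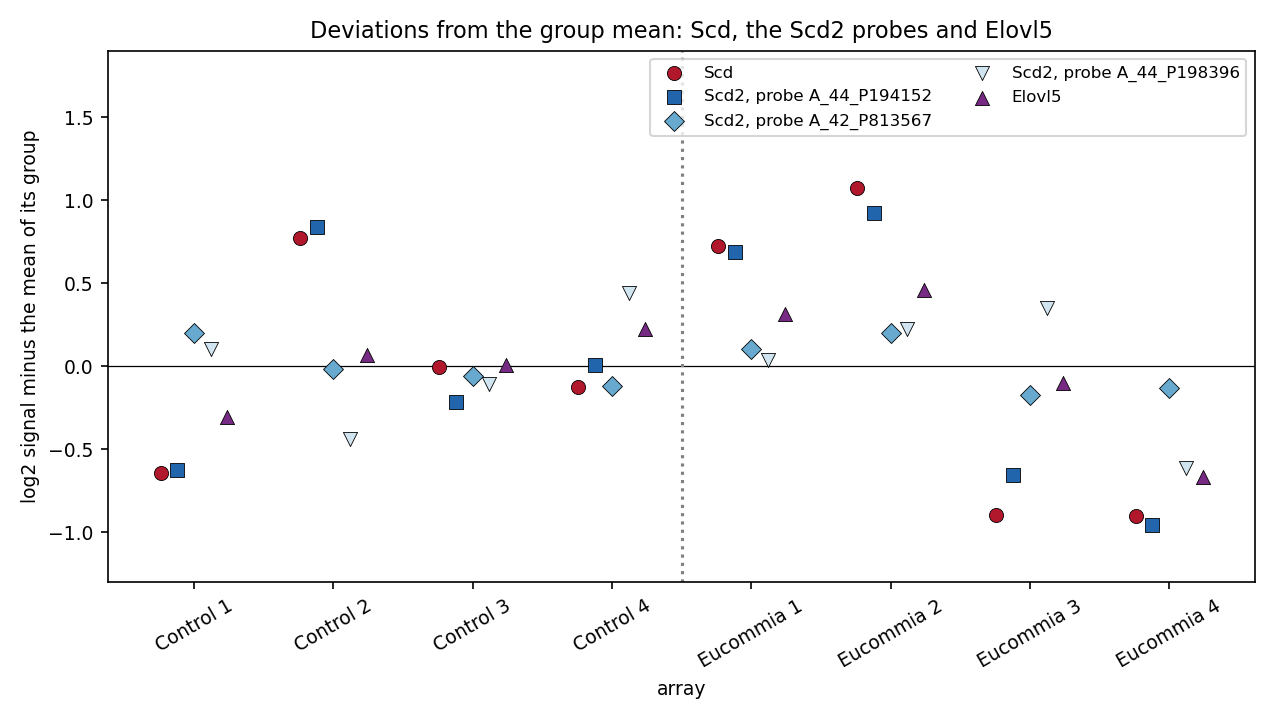
Log2 signal minus the mean of its group (vertical axis) for Scd, the 3 Scd2 probes and Elovl5 on each of the 8 arrays (horizontal axis; dotted line between the groups). Scd and Scd2 probe A_44_P194152 are both high on Control 2 and Eucommia 1 and 2 and both low on Control 1 and Eucommia 3 and 4, while probe A_42_P813567 follows that order on the Eucommia arrays over a smaller range but not on the Control arrays.

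The bases upstream of the transcription starts of Scd2 and Elovl5 are shown because their brightest probes had among the higher correlations of the family over the arrays. They come from the RefSeq promoter table of build GRCr8, in which 7 of the 8 members matched. Elovl6 did not. The windows are 250 bases long and end at the base before the annotated start. Those of Scd2 and Elovl5 lie outside the annotated span of their gene. The Scd2 window is chr1:253118127-253118376 on the plus strand, and the Elovl5 window is chr8:87670914-87671163 on the plus strand. Capitals mark matches to CCAAT (bound by NF-Y), GATTGTG (the core of a sterol element described in mouse Scd promoters) and CACGTG (an E-box), searched on both strands.
Scd2: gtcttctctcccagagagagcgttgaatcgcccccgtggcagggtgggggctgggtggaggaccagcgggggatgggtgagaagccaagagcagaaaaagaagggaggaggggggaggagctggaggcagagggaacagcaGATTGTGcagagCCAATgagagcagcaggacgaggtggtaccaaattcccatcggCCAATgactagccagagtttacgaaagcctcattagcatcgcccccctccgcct
Elovl5: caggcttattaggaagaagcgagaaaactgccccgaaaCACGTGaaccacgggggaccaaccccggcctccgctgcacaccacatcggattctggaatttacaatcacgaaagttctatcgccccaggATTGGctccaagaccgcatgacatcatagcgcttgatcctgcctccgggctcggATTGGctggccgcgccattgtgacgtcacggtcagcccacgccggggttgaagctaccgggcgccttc
The Scd2 window holds GATTGTG starting 109 bases before the start, and CCAAT at 97 and 54 bases. The Elovl5 window holds CACGTG at 212 bases and CCAAT on the minus strand at 122 and 68 bases. Of 33469 windows of the same length, 2.43% hold GATTGTG, 34.0% hold CCAAT and 5.59% hold CACGTG. Among the other members, the Fads1 window holds CCAAT 1 time, and those of Scd, Fads2, Elovl1 and Elovl2 hold none of these 3 motifs. The Scd and Elovl1 windows lie inside the annotated span of their gene over all 250 bases. For these genes the bases upstream of the span were therefore not searched. The Fads2 window lies inside over 157 bases, the Fads1 window over 87 and 1 of the Elovl2 windows over 233. GGGCGG and TATAAA were also searched, and 30.5% and 12.9% of all windows hold them. GGGCGG is in the windows of Fads1, Fads2 and Elovl2, with 7 matches in 1 of the Elovl2 windows, and TATAAA is in none of the 8 member windows. A match is a string of letters and shows no binding, and a window without one says nothing of the factor.

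Fads2 encodes the desaturase that takes the first step from linoleate and alpha-linolenate. It read 2.63, 2.13, 1.67 and 2.08 on the Control arrays and 2.21, 2.19, 2.33 and 1.73 on the Eucommia arrays. The lowest and the highest reading of the 8 were both Control, so the Eucommia readings lay inside the Control range. Means were 2.12 ± 0.40 and 2.12 ± 0.26 (SD, n = 4 each). The difference of -0.0091 ± 0.21 (SE; adjusted p = 0.981 by limma) had an interval of -0.49 to 0.47, or 0.713 to 1.38 times the Control level.

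Fads1, which completes arachidonate and eicosapentaenoate, read 3.63, 3.95, 3.30 and 3.85 on the Control arrays. The Eucommia arrays read 3.41, 3.91, 3.51 and 2.82. Eucommia replicate 4 lay below all other arrays, and the other Eucommia readings fell within the Control range. The difference was -0.27 ± 0.23 (SE; adjusted p = 0.457 by limma; interval -0.80 to 0.26). It was -0.073 without Eucommia replicate 4 and -0.44 without Eucommia replicate 2.

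Elovl6 lengthens palmitate to stearate and had the largest difference of the 8 by size. Its brightest probe read -0.48, -0.63, -1.43 and -1.57 on the Control arrays and -1.82, -0.81, -1.91 and -1.92 on the Eucommia arrays. Of the Eucommia arrays 3 lay below every Control array, and replicate 2 lay among them. The means were -1.03 ± 0.55 and -1.62 ± 0.54 (SD, n = 4 each). The difference of -0.59 ± 0.33 (SE) gave an adjusted p of 0.239 by limma, and its interval of -1.34 to 0.15 covered 0.396 to 1.11 times the Control level. Without Eucommia replicate 2 it was -0.86 (adjusted p = 0.0699 by limma), and it was -0.41 without Control replicate 1. The second probe was dim, above background on 2 Control and 3 Eucommia arrays, and gave -0.30 ± 0.59.

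Elovl5, which lengthens polyunsaturated acids between the steps of Fads2 and Fads1, read -2.04, -1.67, -1.72 and -1.51 on the Control arrays and -1.41, -1.27, -1.82 and -2.39 on the Eucommia arrays. The Eucommia group held both the highest and the lowest reading. The difference was 0.0094 ± 0.24 (SE; adjusted p = 0.983 by limma; interval -0.54 to 0.56). It was 0.23 without Eucommia replicate 4.

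Elovl2, which makes the longest precursors of docosahexaenoate, read 1.02, 0.61, 0.80 and 0.52 on the Control arrays and 0.82, 1.03, 0.72 and 0.68 on the Eucommia arrays. Neither group stood above the other. The difference was 0.075 ± 0.13 (SE; adjusted p = 0.732 by limma; interval -0.23 to 0.38), and its other probe gave 0.14 ± 0.14.

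Elovl1, an elongase of saturated and monounsaturated very-long-chain acids, was the steadiest member. It read 1.77, 1.47, 1.57 and 1.58 on the Control arrays and 1.68, 1.65, 1.47 and 1.48 on the Eucommia arrays. All readings lay within 0.30 of each other, a 1.23-fold range. The difference was -0.026 ± 0.10 (SE; adjusted p = 0.884 by limma), and its interval of 0.838 to 1.15 times the Control level was the narrowest of the 8. The second probe gave -0.072 ± 0.13.

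**Figure D3:**
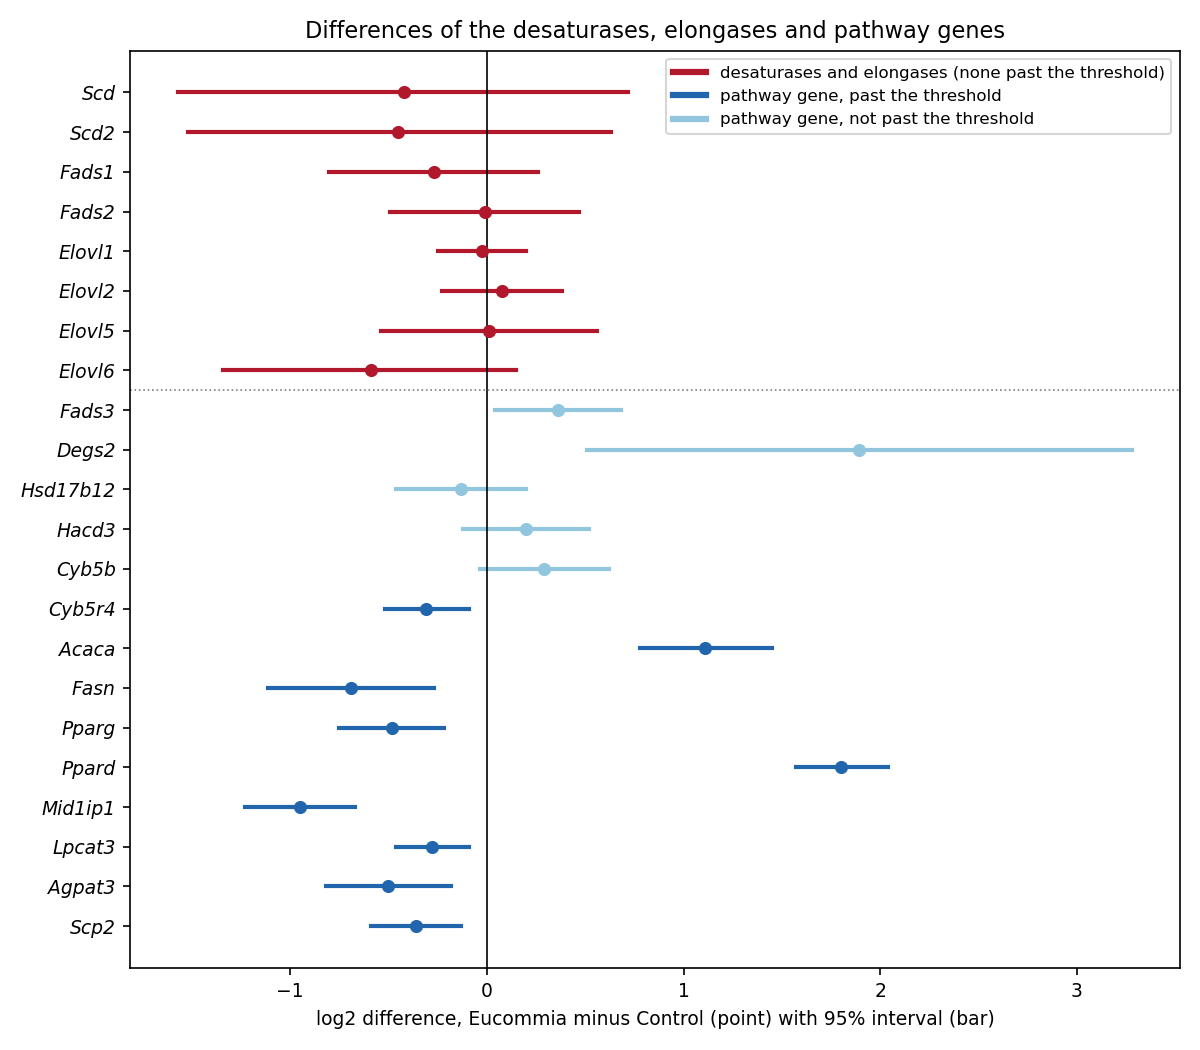
Log2 difference, Eucommia minus Control (horizontal axis; points), with 95% intervals (bars) for the 8 desaturases and elongases above the dotted line and 14 pathway genes below it. All 8 intervals of the upper block include 0, and the widest are those of Scd and Scd2, while 9 of these pathway genes passed the threshold.

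Over the 22 other settings of scaling, filter, probe choice, variance model and left-out array, no member was called in any (adjusted p by limma 0.0566 to 0.993). The differences of Scd, Scd2, Fads1 and Elovl6 were below 0 in all 22, and those of Fads2, Elovl1, Elovl2 and Elovl5 took either sign. Median centring, which moved the median of all features from 0.019 to -0.24, gave -0.85 for Elovl6, -0.68 for Scd, -0.53 for Fads1 and -0.29 for Elovl1.

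The within-group spread divided the members. The pooled SD was 0.847 for Scd, 0.796 for Scd2 and 0.545 for Elovl6, larger than that of 98.5%, 98.2% and 94.1% of features. Elovl5 (0.390), Fads1 (0.377) and Fads2 (0.336) exceeded 85.2%, 83.8% and 79.1% of features. Elovl2 (0.193) and Elovl1 (0.118) exceeded only 46.8% and 17.4%. The interval of each difference follows this spread, so the arrays bound a change in Elovl1 far more tightly than a change in Scd.

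**Figure D4:**
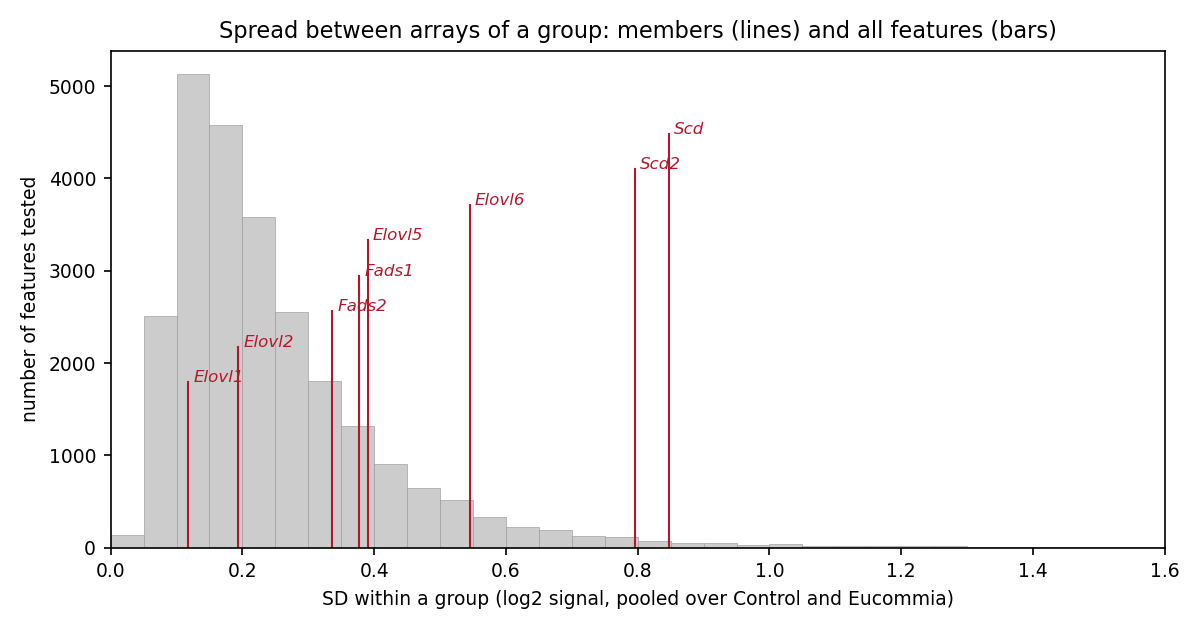
Number of features (vertical axis, grey bars) by within-group SD of the log2 signal pooled over both groups (horizontal axis), with a red line at the SD of each member. Elovl1 and Elovl2 lie in the bulk of features, and Scd and Scd2 lie in the upper tail at 0.847 and 0.796.

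The array that read lowest was often the same. Eucommia replicate 4 had the lowest reading for 5 of the 8 members (Scd, Scd2, Fads1, Elovl5 and Elovl6), and it was the lowest array for 14.2% of all features. Eucommia replicate 4 was also the highest array for 22.3% of all features. Control replicates 1 and 2 held the highest reading for 3 members each and Eucommia replicate 2 for the other 2. Over all features these arrays were highest for 11.8%, 12.4% and 9.16%. These counts describe the arrays, since the members were measured on the same RNA.

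How the members varied together was measured on deviations from the group means over 8 arrays, with exact permutation of arrays within groups (576 orders, 2-sided) and adjustment over all 28 pairs. Scd and Scd2 gave Pearson r = 0.98 (exact permutation p = 0.00521) and Spearman rho = 0.98 (exact permutation p = 0.00694). Without the 2 arrays farthest from the median of Scd, Control replicate 2 and Eucommia replicate 2, r was 0.97. Scd2 and Elovl5 gave r = 0.85 (exact p = 0.0312) and rho = 0.90 (exact p = 0.0330), with r = 0.90 without 2 arrays. Scd and Elovl5 gave r = 0.82 (exact p = 0.0469) and rho = 0.86 (exact p = 0.0660), with r = 0.81 without 2 arrays. Elovl1 and Elovl2 gave r = 0.80 (exact p = 0.0417) and rho = 0.60 (exact p = 0.188), with r = 0.75 without 2 arrays. After adjustment no pair passed: the lowest adjusted exact p was 0.146 by r and 0.194 by rho, both for Scd and Scd2. Scd and Fads2 had r = -0.0079 (exact p = 0.976) and rho = -0.024 (exact p = 0.970). Within Control and Eucommia alone (n = 4 each), this pair had r = -0.45 and 0.36. In the same order r was 0.97 and 0.99 for Scd with Scd2 and 0.82 and 0.78 for Elovl1 with Elovl2. With Elovl5 it was 0.60 and 0.94 for Scd2 and 0.56 and 0.89 for Scd. Probes of the same gene shared their variation for Elovl1 (r = 0.96), Elovl2 (0.81) and Elovl6 (0.80), but not for Scd2, where the 3 probes had r = 0.48, 0.13 and 0.09 with each other. The quality and RNA amount of an array are shared by both genes of a pair, and their part in such a correlation was not tested.

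**Figure D5:**
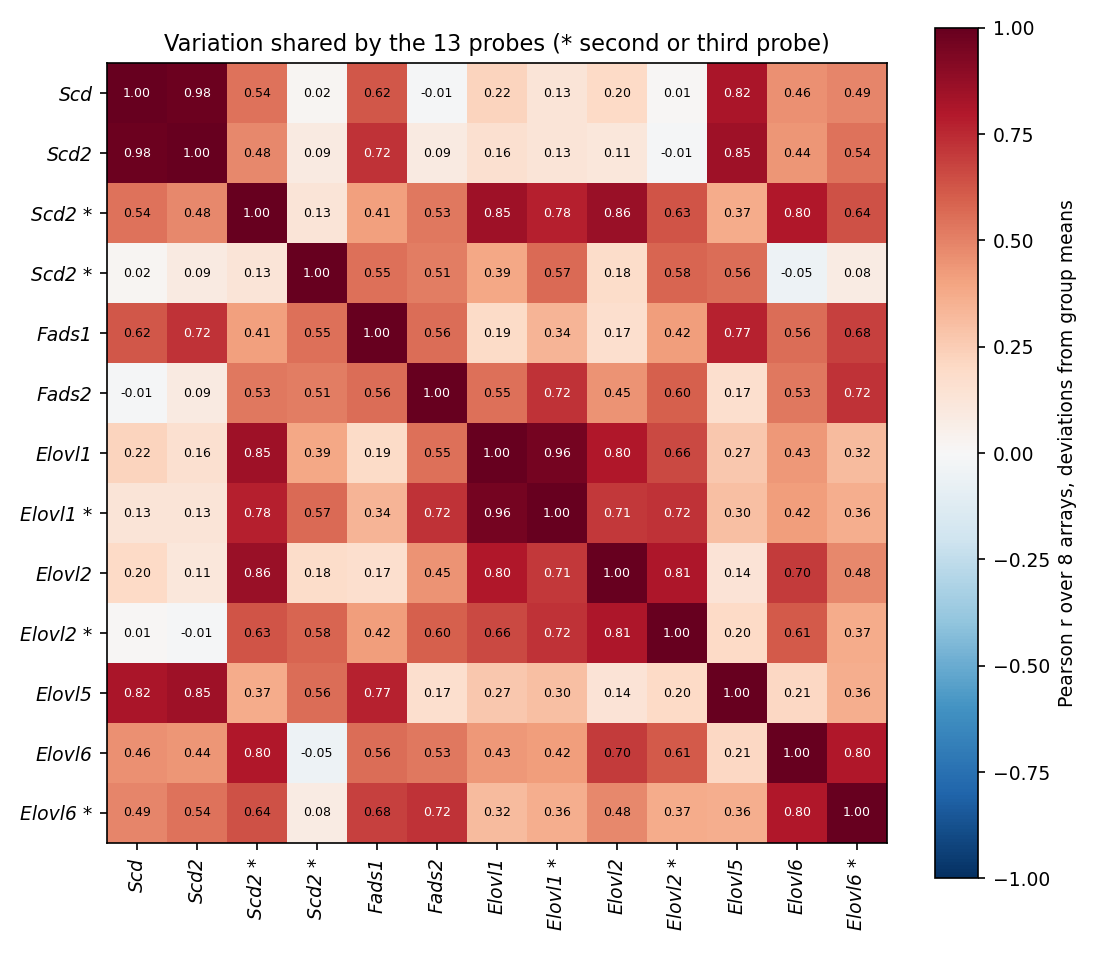
Pearson r between the 13 probes of the 8 genes over 8 arrays, on deviations from the group means; asterisks mark probes other than a gene's brightest. Scd and the brightest Scd2 probe stand at 0.98, while the other Scd2 probes stand at 0.54 and 0.02 with Scd.

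Differences between members in their response were tested within arrays, where the scaling cancels, by exact permutation over all 70 assignments of the 8 arrays, which cannot give a p below 0.0286. The response of Elovl6 minus that of Elovl5 was -0.60 (95% interval -1.96 to 0.53, exact p = 0.229). Fads1 minus Fads2 was -0.26 (-0.72 to 0.71, exact p = 0.400), and Elovl6 minus Scd was -0.17 (-2.28 to 0.84, exact p = 0.914). Elovl2 minus Elovl5 was 0.066 (-0.81 to 1.04, exact p = 0.800). For Scd minus Scd2 it was 0.021 (-0.43 to 0.30, exact p = 0.857), the narrowest interval of the 5 pairs. All 5 adjusted p-values were 0.914, and after adjustment at least 3 of the 5 pairs would have had to reach the smallest p for any to pass. Without Control replicate 1, Elovl6 minus Scd was 0.23.

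Genes whose deviations were most like those of a member were sought among 8463 genes above background on all arrays. For Scd they were Scd2 (r = 0.983), Nradd (0.978) and Fam81a (0.952). For Fads1 they were Nsg1 (0.979), Frmd8 (0.961) and Pls1 (0.958). Fads2 was most like Spryd4 (0.993), Poldip3 (0.990) and Adnp2 (0.983). Elovl6 was most like Fabp2, a fatty acid-binding protein of enterocytes (0.943), Calml4 (0.942) and C7h19orf25 (0.926). Each r is over 8 arrays and is the highest of many, given as a description. Deviations leave out the difference between the groups. Nradd (1.31), Fam81a (2.83) and Pls1 (-0.88) passed between the groups (adjusted p = 0.00325, 1.43e-04 and 0.00263 by limma), unlike Scd and Fads1. The other genes listed did not pass.

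The other genes of the pathway were read from 7 lists. Of 53 genes tested, 3 were higher and 7 lower, or 18.9% called, against 24.6% of all features and 18.6% of those above background on all arrays. Of the other desaturases and elongases, 0 of 4 passed (median 0.18; 2 had an unadjusted p under 0.05 by limma). Fads3, a relative of Fads1 and Fads2, had 0.36 ± 0.14 (SE), with an adjusted p of 0.0966 by limma, and over the left-out arrays its difference ran from 0.26 (adjusted p = 0.200, without Control replicate 2) to 0.46 (adjusted p = 0.0339, without Control replicate 1). It was 0.24 with quantile normalization and 0.10 with median centring (adjusted p = 0.246 and 0.614 by limma). Degs2, a sphingolipid desaturase, was well above background on 0 of 4 Control and 4 of 4 Eucommia arrays, so it entered the fit through the Eucommia group alone. Its measured means were -5.57 ± 0.50 and -3.67 ± 1.37 (SD, n = 4 each), a difference of 1.89 with an adjusted p of 0.0521 by limma. With each Control reading raised to at least its array's lowest signal above background, the fold was 2.53. That fold holds for this scaling only and is not a firm lower bound. The difference was 1.22 without Eucommia replicate 3, where it passed (adjusted p = 0.015 by limma). It was 0.24 with normexp and quantile normalization (adjusted p = 0.126 by limma). Of 21 other settings 5 called Degs2.

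Of the partners of the elongation cycle, 0 of 3 tested genes passed, and 0 of 3 had an unadjusted p under 0.05 by limma (median 0.047). Hsd17b12, the ketoacyl reductase, had -0.13 ± 0.14, and the dehydratase Hacd3 had 0.20 ± 0.14 by its brightest probe and -0.083 and -0.10 by the other 2. Of the genes that carry electrons to desaturases 0 of 5 were higher and 1 lower (median 0.059). Cyb5r4, a cytochrome b5 reductase, had -0.31 ± 0.094 (adjusted p = 0.0440 by limma). It did not pass in any fit that left out an array other than Control replicate 3 (adjusted p 0.0729 to 0.123), nor with scaling to the percentile of only those probes above background throughout (adjusted p = 0.0666). Cyb5b, the outer mitochondrial cytochrome b5, had 0.29 ± 0.14 by its brightest probe (adjusted p = 0.187 by limma) and -0.32 ± 0.10 by the other (adjusted p = 0.0455 with every probe tested on its own), so its probes disagree in direction. The brightest gave 0.43 without Eucommia replicate 4 (adjusted p = 0.00994 by limma).

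Of 8 enzymes that supply substrate, 1 rose and 1 fell (median -0.073). Acaca, the carboxylase that makes the malonyl-CoA used by elongases, rose from -1.92 ± 0.29 to -0.80 ± 0.11 (SD, n = 4 each), a difference of 1.11 ± 0.15 (SE; adjusted p = 5.59e-04 by limma), which was 0.67 with normexp and quantile normalization and still passed. Fasn, which makes palmitate, fell by 0.69 from 2.27 ± 0.31 to 1.58 ± 0.27 (adjusted p = 0.0253 by limma). Fasn missed the threshold without Control replicate 2 or Eucommia replicate 1, 2 or 3 (adjusted p = 0.0577, 0.0670, 0.0731 and 0.0561).

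In the list of transcriptional regulators and proteins grouped with them, such as Mid1ip1, 1 of 15 tested was higher and 2 were lower (median -0.024). Srebf1 is not among the genes named here by accession. Mlxipl, which encodes ChREBP, had 0.053 ± 0.11, and Nr1h3, the liver X receptor alpha, had -0.18 ± 0.098; neither passed, and both were picked for their known role after their values were seen. Mid1ip1, an activator of acetyl-CoA carboxylase, fell by 0.95 (SE 0.12; adjusted p = 4.79e-04 by limma), and its other probe read -0.89. Ppard rose by 1.80 ± 0.10 at a dim signal (means -3.79 and -1.99), and Pparg fell by 0.48 (SE 0.12; adjusted p = 0.0149 by limma). With normexp and quantile normalization the difference was 0.51 for Ppard and -0.26 for Pparg, and both still passed.

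Of genes that activate or esterify polyunsaturated acids, 0 of 12 were higher and 2 lower (median -0.033). Lpcat3, which places arachidonate in phospholipids, had -0.28 ± 0.08 (adjusted p = 0.0357 by limma), and leaving out any array but Control replicate 3 or Eucommia replicate 4 ended the call (adjusted p 0.0705 to 0.0922). So did quantile normalization, cyclic loess and scaling to the percentile of only those probes above background throughout (adjusted p = 0.0636, 0.0637 and 0.0550 by limma). Agpat3, an acyltransferase, had -0.50 ± 0.14 (adjusted p = 0.0314) by its brightest probe and -0.025 ± 0.18 by the other. Its call was lost on leaving out Eucommia replicate 1 or any of Control replicates 1, 2 and 3 (adjusted p 0.0562 to 0.0762). It was lost also with quantile normalization, cyclic loess, scaling to the percentile of only those probes above background throughout and the mean over probes (adjusted p = 0.0628, 0.0676, 0.0554 and 0.277 by limma).

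Of the genes tested for the peroxisomal step that shortens precursors to docosahexaenoate, Scp2 fell by 0.36 (SE 0.10; adjusted p = 0.0281 by limma). Scp2 was listed for its thiolase and read by 1 probe, and which of its transcripts that probe reads was not tested. The Scp2 call was lost on leaving out any of Eucommia replicates 1, 2 and 3 or of Control replicates 1 and 3 (adjusted p 0.0615 to 0.0771). Quantile normalization, alone or after normexp, ended it too (-0.24 and -0.19, adjusted p = 0.108 and 0.136 by limma).

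The array and tissue checks that touch these values are as follows. All Control arrays lay on one slide and all Eucommia arrays on another, each with its own scan, and the effects of slide and of group cannot be told apart. On the Control arrays 58.9% to 61.5% of spots were well above background, and on the Eucommia arrays 69.3% to 71.9%. Of the 25128 features 6181 were called, 74.6% of them higher, a share of 58.8% with quantile normalization, 59.7% with normexp and 31.9% with median centring. All 10 hepatocyte markers were measured and 1 passed, Tf, lower; the brightest, Alb, read 10.08 ± 0.11 and 9.91 ± 0.087 (SD, n = 4 each). Of Kupffer cell markers 0 of 8 passed (median difference -0.51). The log2 of their summed signals, which follows the brightest markers most, was 6.31 to 7.01 (Control) and 5.93 to 6.60 (Eucommia). The same measure is given in brackets for the other cell types. For the endothelial markers the median difference was 0.42, while the brightest, Kdr, had -0.26. Of endothelial markers 1 of 4 was higher (6.32 to 6.60 and 6.15 to 6.38), of stellate markers 1 of 6 was higher (4.41 to 5.03 and 4.91 to 5.28), and of cholangiocyte markers 1 of 3 was lower (0.57 to 1.12 and 0.37 to 0.49). Adipocyte markers Adipoq, Lep and Retn were not well above background on any array, and 1 of 3 tested was lower (4.21 to 4.49 and 3.99 to 4.27). Of nerve and myelin markers 1 of 3 was higher (-1.01 to -0.21 and -0.73 to -0.44), and S100b was not above background on any array. Of acinar markers of the pancreas 1 of 3 was higher (-0.35 to -0.06 and 1.0 to 1.67), Ctrb1, and Prss1 was not above background on any array. The 5 named skeletal muscle markers were not above background on any array. The part of other cell types in the members' readings was not tested.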

How the data were processed

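Each array's deposited file gives the intensity of every spot. The authors used Agilent Feature Extraction 10.1.1.1, per the submitters' processing notes, on 500 ng of total RNA per array, per the labels' protocols. The processed signal is not normalized between arrays. Flags in the deposited files, of other kind, mark control, outlier, saturated and well-above-background spots. The deposited series table equalled the processed signal at 100% of 43379 spots.

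Outlier and control spots were left out, log2 values of a probe averaged, and each array's 75th percentile subtracted. Probes well above background on at least 4 of 8 arrays were kept (27724 of 41012). Accessions were matched to RefSeq GRCr8, naming 16336 probes with 13031 symbols. A gene is its brightest probe, and an unnamed probe is its own feature. The 2 groups were tested by limma 3.58.1 (R 4.3.3), and the script was tested on simulated data. The number of arrays limits precision. The members and lists were chosen with earlier results of these data known. Named genes are the 8 members, and of each pathway list those past the threshold and the 2 with the smallest p, the brightest marker, and the 3 genes most like each of Scd, Fads1, Fads2 and Elovl6. Nr1h3 and Mlxipl are exceptions, and 1 gene the rule names is not reported here. Normexp used the spots' median signal. A slide block could not be fitted, as each slide held 1 group.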

Additional observations from a re-analysis of the deposited data

Results flagged for a closer look

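In 66 groups of 4 arrays (each member probe, named pathway gene and pair of members, in each group) a reading was looked for that stood far from the other 3. There were 5, and chance gives about 1 in 20. Elovl6 read -0.81 on Eucommia replicate 2, against -1.92 to -1.82 on the other Eucommia arrays. Elovl6 minus Scd was -5.27 on Control replicate 1, against -6.88 to -6.83 on the other Control arrays. Degs2 read -1.64 on Eucommia replicate 3, against -4.51 to -4.07 on the others. Cyb5b read 2.08 on Eucommia replicate 4, against 2.60 to 2.67, and Agpat3 read 2.71 on the same array, against 3.17 to 3.26.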

How the results depend on the processing

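The count of desaturases and elongases called was 0 under all 22 alternatives. The count of pairs that differed in response was 0 in the 20 run for it, but so few arrays could hardly give another count: a single pair cannot pass after adjustment over 5, and the sign-flip test with the replicate block cannot pass at all. The count of all features called, 6181, became 11818 with median centring, 12806 with no filter on dim probes and 3725 with features above background on all arrays. Leaving out single arrays gave 4954 to 5769 with the tested features kept the same. The count of pathway genes called, 10, became 23 with median centring, 17 with normexp and quantile normalization, and 6 to 10 without single arrays, with 6 without Control replicate 2, Eucommia replicate 1 or Eucommia replicate 2. Of the named pathway genes, Acaca, Ppard, Pparg and Mid1ip1 passed under every setting. The cause of these shifts was not tested. Samples with the same replicate number did not deviate together (correlations of deviations -0.10 to -0.029). This does not settle whether the numbers pair the arrays, and the labels do not say. With the replicate number as a block, 5149 features were called and no member was. The count of pathway genes called was then 7. Fasn, Cyb5r4, Lpcat3 and Scp2 missed the threshold with the block (adjusted p = 0.0766, 0.122, 0.115 and 0.0975 by limma), and Degs2 passed (0.0349). The block lowered the SE of Elovl6 from 0.33 to 0.21 (adjusted p = 0.11 by limma). It lowered that of Scd from 0.50 to 0.39 and raised that of Elovl5 from 0.24 to 0.26. A slide block could not be fitted. The number of arrays limits precision most for Scd, whose 95% interval spans 0.338 to 1.64 times the Control level.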
